A study of Rattus norvegicus with 6 samples.

Results

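The collagenases MMP1 and MMP13 were set against each other as remodellers of an extracellular matrix, through the transcripts of fibroblasts seeded on it. The data used are the 2 libraries from cells on MMP1-remodelled matrix and the 2 libraries from cells on MMP13-remodelled matrix, chosen by their sample titles, that is 4 of the 6 libraries of the series. The other 2 libraries, from cells on native matrix (treatment given as none), serve here to say which remodelled matrix lay away from native. All 6 libraries came from Rat-1, a single established rat fibroblast line, of which 25000 cells per well were seeded and left for 4 h. The labels describe the matrix no further than as fibers in the sample titles, and name neither enzyme dose nor the length of digestion. RNA came from the adherent cells and was made into 3' end libraries. The labels call the samples duplicates without saying whether they were separate cultures, so the p-values cover only the spread among these 6 libraries, and part or all of that spread may be technical.

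Matrix metalloproteinases 1 and 13 are secreted enzymes that cut the triple helix of fibrillar collagens. Cells read a matrix through integrins and other receptors, which act on the actin cytoskeleton and on gene expression. The antioxidant response is another system that can answer a change of surroundings within hours. In it the transcription factor NRF2 escapes its inhibitor KEAP1 and, where the repressor BACH1 gives way, switches on genes such as Hmox1, whose product haem oxygenase 1 splits haem into biliverdin, carbon monoxide and iron.

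The libraries held 184061 and 225105 reads on MMP1-remodelled matrix, 362122 and 161817 on MMP13-remodelled matrix, and 219775 and 347618 on native matrix. Values are reads divided by a library's size factor, called units, and 1 read was worth 0.735 to 1.68 units. The fibroblast markers Vim (1099 to 1458 units), Col1a1 (1829 to 2277) and Lgals1 (1467 to 1805) were high in every library. Not every gene typical of fibroblasts was high. Dcn held at most 1 read per library, Lum held no read in any, and Col3a1 held 4 to 28 reads. Of 49 markers of 7 other cell types or tissues, 7, among them epithelial Epcam, had no read in any library. Of the 49, 9 reached 5 units in at least 2 libraries. The list for cartilage and tendon took the largest share of reads, at most 0.0359% in any library, and each other list took at most 0.0109%. A lower value in such bulk RNA can come from fewer cells of a kind or from less RNA per cell, and these cannot be told apart.

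Few transcripts were found to differ between fibroblasts on the 2 remodelled matrices. Hmox1 was 2.41-fold higher on MMP13-remodelled than on MMP1-remodelled matrix. Osbpl5, a lipid-transfer protein gene of membrane contact sites, and Fbxo22, the gene of an F-box subunit of a ubiquitin ligase, were also higher, from much lower levels. No gene passed as lower. In the test across 7284 genes (limma on log2(value + 1), Benjamini-Hochberg adjusted p under 0.05, called "passed" below), 3 genes were higher, 0.0412% of those tested, and 0 were lower (0%). At an unadjusted p under 0.05, 188 genes were higher (2.58%) and 192 lower (2.64%). With edgeR's quasi-likelihood test on the reads of 4574 genes, 2 were higher and 0 lower (92 lower at an unadjusted p under 0.05). With DESeq2, adjusted over 14735 genes, 1 was higher and 0 lower (60 lower at that unadjusted p). Log2 differences below are MMP13 minus MMP1 unless native is named. They were computed after adding 1 unit to each value, which makes a low gene's change smaller. As means of logs they also give a near-zero replicate much weight, which can make a change larger. Bloc1s4, without a read in 1 MMP13 library, had -2.31 by limma, -0.89 by edgeR and -1.12 by DESeq2.

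Among abundant genes, libraries on the different remodelled matrices lay about as close to each other as replicates. Over the 481 genes with a mean of at least 100 units, the median absolute log2 difference was 0.18 between the replicates on MMP1-remodelled matrix and 0.18 between those on MMP13-remodelled matrix. Between an MMP1 and an MMP13 library it was 0.15 to 0.19. Between a native library and a library on either remodelled matrix it was 0.20 to 0.31, against 0.19 between the native replicates. The wider pairs were those with native replicate 1 (0.26 to 0.31). Pairs with native replicate 2, at 0.20 to 0.22, lay near the replicate values. The values across the remodelled matrices thus lay on both sides of the replicate values. Over all 7284 tested genes, most of them low, native libraries did not stand apart. The medians there were 0.46 to 0.63 for pairs with a native library, 0.47 to 0.58 for pairs of an MMP1 with an MMP13 library and 0.50 to 0.54 for replicates. These medians describe genes of the same libraries and were not tested.

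**Figure D1:**
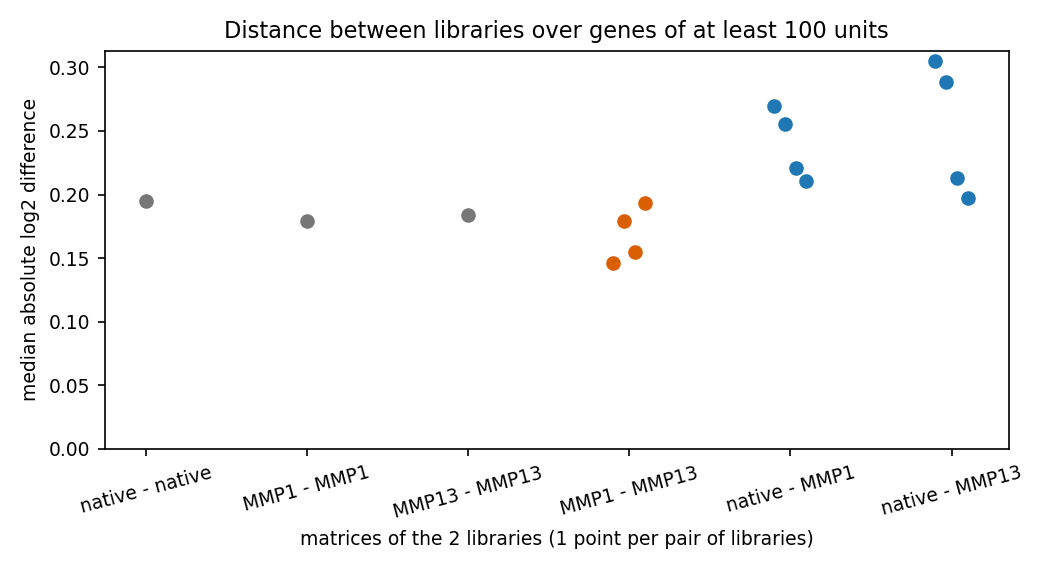
Median absolute log2 difference between pairs of libraries (vertical axis, log2 units) over the 481 genes of at least 100 units, with 1 point per pair, grouped by the matrices of the pair. The 4 pairs of an MMP1 with an MMP13 library lie at 0.15 to 0.19, around the replicate pairs. Pairs with a native library lie at 0.20 to 0.31, an order not seen over all tested genes. Those with native replicate 2 lie at 0.20 to 0.22.

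For these abundant genes a large difference can be bounded. The 95% interval of the difference lay between -1 and 1, that is within 2-fold, for 479 of the 481 genes (99.6%). The difference itself was beyond 0.5 in either direction for 9 genes. Hmox1, Akr1b8, Txnrd1, Rn28s and Hnrnpab were the 5 higher ones and Prkcsh, Olfml3, Spcs1 and Rpl8 the 4 lower ones. Hmox1 alone of these passed. Of the 1334 genes at 30 to 100 units, 886 had an interval within 2-fold. At 10 to 30 units, where Osbpl5 and Fbxo22 lie, 177 of 2567 genes did (6.9%), so most were not bounded. Of the 2902 genes under 10 units 0 did, so differences of that size were not detectable or bounded there. The intervals take each gene's error from the trend of spread on level, not from its own libraries.

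**Figure D2:**
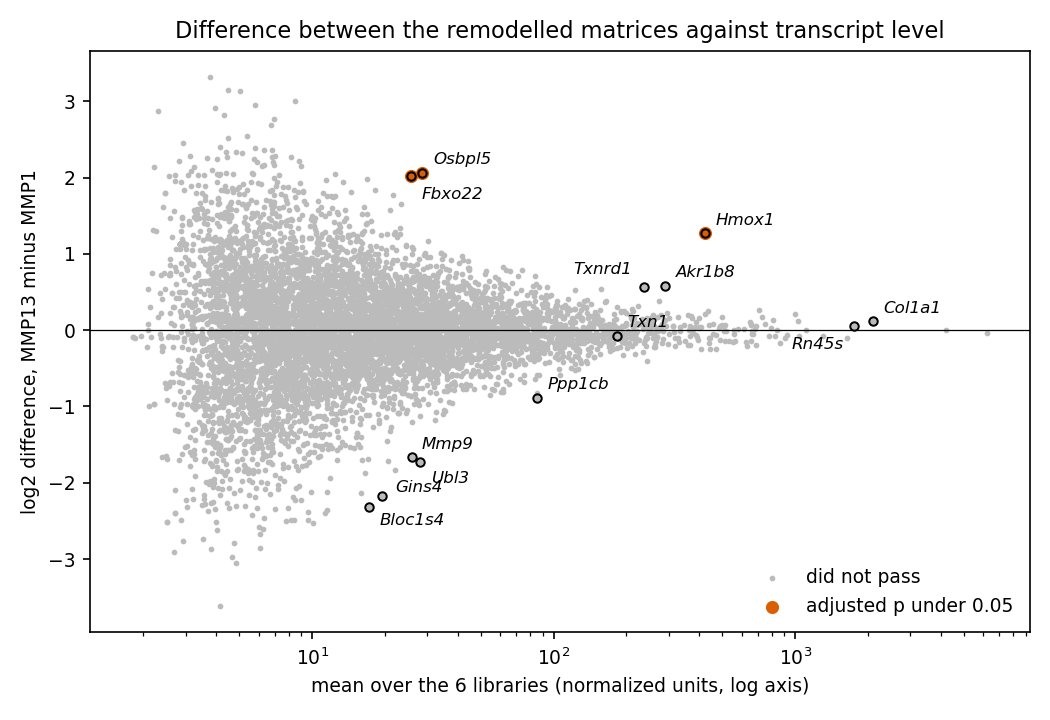
Log2 difference, MMP13 minus MMP1 (vertical axis), against the mean over the 6 libraries in normalized units (horizontal log axis), 1 point per tested gene, with the 3 genes that passed in orange. Hmox1 stands at 1.27 among genes whose points lie near 0, while Osbpl5 (2.06) and Fbxo22 (2.02) lie at the edge of a broad cloud.

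Hmox1 was at 355 and 301 units on MMP1-remodelled matrix and at 835 and 749 on MMP13-remodelled matrix. On native matrix it was at 129 and 167. The 3 groups did not overlap, with native lowest and MMP13 highest. The difference between the remodelled matrices was 1.27 (SE 0.16, 95% interval 0.97 to 1.58, adjusted p = 2.5e-12), and it rested on 243 and 251 reads against 1135 and 446. By edgeR the adjusted p was 2.4e-14 and by DESeq2 3.51e-10. It stayed under the threshold without each of the 6 libraries in turn, with differences of 1.15 to 1.39. Fitted without the trend of spread on level, where all genes share one prior spread whatever their level, limma gave Hmox1 an adjusted p of 0.82 and called no gene. Its own spread within groups (SD 0.19 on the log2 scale) was near the 0.16 that the trend gives at its level.

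Both remodelled matrices lay above native for Hmox1, by 1.15 for MMP1 (SE 0.16) and by 2.42 for MMP13 (SE 0.16). Each of these passed. In those comparisons, which share the native libraries with each other and the remodelled ones with the comparison above, 0.137% of genes passed as higher and 0.0137% as lower on MMP1-remodelled matrix, and 0.275% and 0.137% on MMP13-remodelled matrix. Hmox1 took 0.132% and 0.112% of reads on MMP1-remodelled matrix and 0.313% and 0.276% on MMP13-remodelled matrix.

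Osbpl5 was at 10.2 and 12.0 units on MMP1-remodelled matrix and at 45.6 and 53.7 on MMP13-remodelled matrix, with native libraries between them at 20.7 and 29.4. The groups did not overlap, and the replicates of each lay close together. The difference was 2.06 (SE 0.45, adjusted p = 0.014), from 7 and 10 reads against 62 and 32. MMP1-remodelled matrix was 1.09 below native (adjusted p = 0.42) and MMP13-remodelled matrix 0.98 above it (adjusted p = 0.52). Neither passed, so which matrix moved away from native was not resolved for Osbpl5. The order MMP1 below native below MMP13 with no overlap held for 71 of the 7284 tested genes (0.975%), and the mirror order for 79 (1.08%). The edgeR adjusted p of Osbpl5 was 0.013. That of DESeq2 was 0.96. The call was lost when any of 4 libraries was left out, native replicate 2 (adjusted p = 0.073), MMP1 replicate 1 (0.13), MMP1 replicate 2 (0.0593) or MMP13 replicate 2 (1), and in the fit of the 4 remodelled libraries alone (0.073), over a range of differences of 1.76 to 2.18 in all alternatives.

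Fbxo22 was at 11.7 and 6.0 units on MMP1-remodelled and at 29.4 and 47.0 on MMP13-remodelled matrix. Its native libraries, at 40.1 and 20.4 units, overlapped the MMP13 libraries and lay above the MMP1 libraries. The difference was 2.02 (SE 0.47, adjusted p = 0.047), from 8 and 5 reads against 40 and 28. Against native it was -1.65 on MMP1-remodelled matrix (adjusted p = 0.13) and 0.37 on MMP13-remodelled matrix (adjusted p = 0.91). The call held in 4 of 17 alternatives, and edgeR gave an adjusted p of 0.099. With a library left out it held without MMP1 replicate 1 and without MMP13 replicate 1, and not without MMP1 replicate 2 (0.53), MMP13 replicate 2 (1), native replicate 1 (0.31) or native replicate 2 (0.17). In a RefSeq table of the rat assembly GRCr8 the span of Fbxo22 overlaps that of Nrg4, a growth factor gene that held 1 to 3 reads per library. Reads of the 2 cannot be told apart where strand was not used, which the labels do not state.

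**Figure D3:**
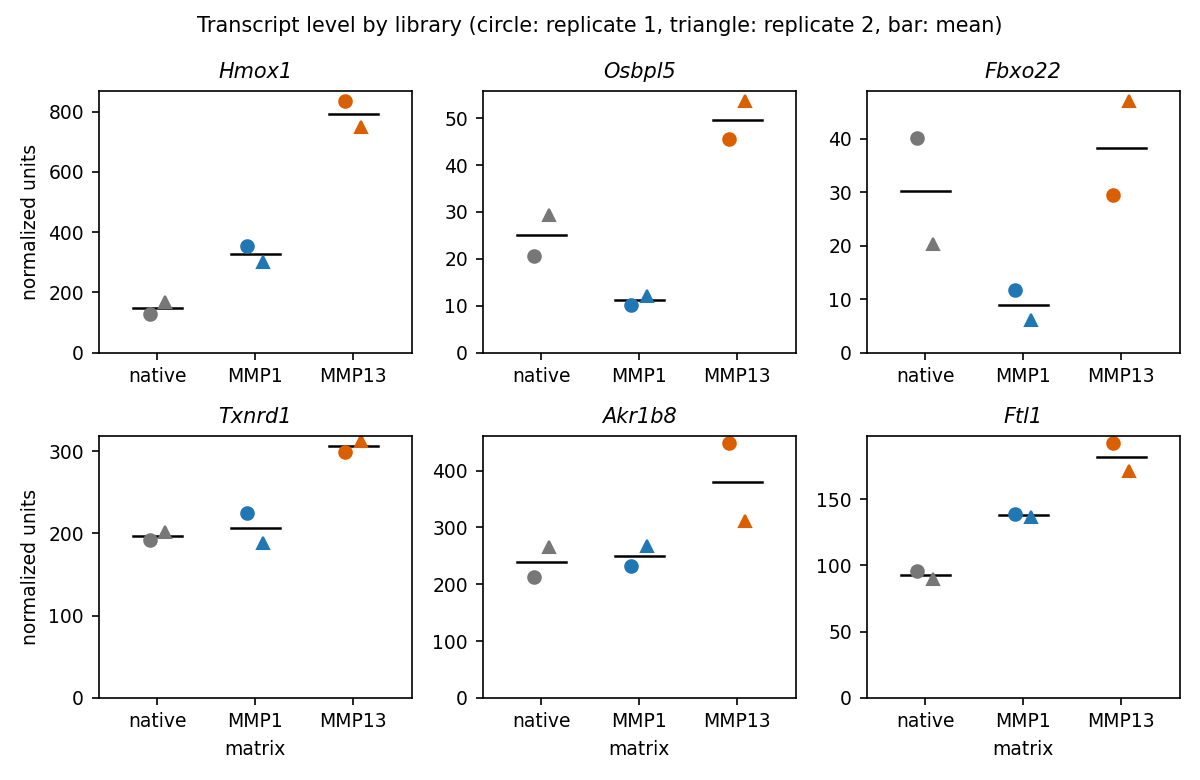
Normalized units (vertical axis, from 0) of 6 genes in each library on native, MMP1-remodelled and MMP13-remodelled matrix (horizontal axis), with circles for replicate 1, triangles for replicate 2 and a bar at the mean. Hmox1 and Ftl1 lie in steps from native over MMP1 to MMP13, Txnrd1 and Akr1b8 are alike on native and MMP1, and Osbpl5 and Fbxo22 are lowest on MMP1.

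Hmox1 belongs to a list of NRF2 targets and antioxidant enzymes, all 26 of whose members in the table were tested. Its median difference was 0.19, against -0.0027 over all tested genes, and its members ran from -0.58 to 1.27. Hmox1 passed as the 1 member higher and 0 were lower. At an unadjusted p under 0.05, 4 were higher and 1 lower. Both MMP13 libraries lay above both MMP1 libraries for 9 of the 26 (34.6%, with 15.9% of all tested genes doing so) and below them for 1 (3.85%, with 15.4% of all). The list took 1.46% and 1.51% of reads on MMP1-remodelled matrix, 2.01% and 1.75% on MMP13-remodelled matrix and 1.18% and 1.31% on native. Without Hmox1 these shares were 1.33% and 1.40%, 1.69% and 1.47%, and 1.14% and 1.24%.

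Txnrd1, which encodes the thioredoxin reductase that recharges thioredoxin, was at 225 and 188 units on MMP1-remodelled and at 299 and 312 on MMP13-remodelled matrix. Native libraries were at 192 and 201, like those on MMP1. The difference of 0.57 (SE 0.18, unadjusted p = 0.0015, adjusted p = 0.51) did not pass. The aldo-keto reductase gene Akr1b8 was at 232 and 266 units on MMP1 and at 449 and 311 on MMP13, with native at 213 and 266. Its difference was 0.58 (SE 0.17, unadjusted p = 4.4e-04, adjusted p = 0.34), and its 2 MMP13 libraries lay far apart. Without MMP13 replicate 1 the difference was 0.32. Against native, Akr1b8 passed on MMP13-remodelled matrix (0.65, adjusted p = 0.034), while on MMP1 the value was 0.065.

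Ftl1, the ferritin light chain that stores the iron freed from haem, was at 139 and 137 units on MMP1 and at 193 and 171 on MMP13, above 96.0 and 89.8 on native. The difference of 0.40 (95% interval -0.037 to 0.83, adjusted p = 0.99) did not pass. The peroxiredoxin gene Prdx1 was at 413 and 489 units on MMP1 and 566 and 507 on MMP13, a difference of 0.25 (-0.027 to 0.53). An order of native below MMP1 below MMP13 with no overlap held for 5 of the 26 members, Hmox1, Ftl1, Prdx1, Srxn1 and Taldo1, and for 1.47% of all tested genes. The reverse order held for 0 members and for 1.37% of all. Srxn1, the sulfiredoxin that repairs peroxiredoxins, had 27.7 and 27.6 units on MMP1 and 45.6 and 42.0 on MMP13.

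Other antioxidant genes did not pass. Thioredoxin Txn1 was at 223 and 215 units on MMP1 and at 233 and 186 on MMP13, a difference of -0.072 (-0.46 to 0.32). Txn1 had passed on both matrices against native, by 0.94 and 0.87. Its native libraries lay far apart, at 83.9 and 154 units. Its own spread within groups (SD 0.38) exceeded the 0.20 that the trend gives. The autophagy receptor gene Sqstm1 differed by 0.14 (-0.19 to 0.47) and the quinone reductase gene Nqo1, often taken as an NRF2 marker, by 0.20 (adjusted p = 1), with native at 256 and 266 units, MMP1 at 266 and 215 and MMP13 at 266 and 282. The metallothionein gene Mt2A was lower on MMP13, at 70.6 and 53.7 units against 99.3 and 86.4 (-0.58, adjusted p = 0.91). Catalase, Cat, had a difference of 0.82 with overlapping libraries (29.2 and 57.6 against 57.4 and 94.0 units). The regulator gene Nfe2l2, which encodes NRF2, was at 51.1 and 49.2 units on MMP1 and at 41.9 and 58.8 on MMP13.

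Haem and iron handling, with 16 members tested, had 1 member higher, Hmox1, and a median difference of -0.082. Ferritin heavy chain Fth1 was at 940 and 1126 units on MMP1 and 1194 and 1043 on MMP13, with overlap. Alas1, the first enzyme of haem synthesis, was at 10.2 and 7.20 units against 16.2 and 20.1 (0.99, adjusted p = 0.99). The repressor gene Bach1 had no read on native or MMP1-remodelled matrix and 4 reads and 1 read in the MMP13 libraries (2.94 and 1.68 units), too few to be tested.

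**Figure D4:**
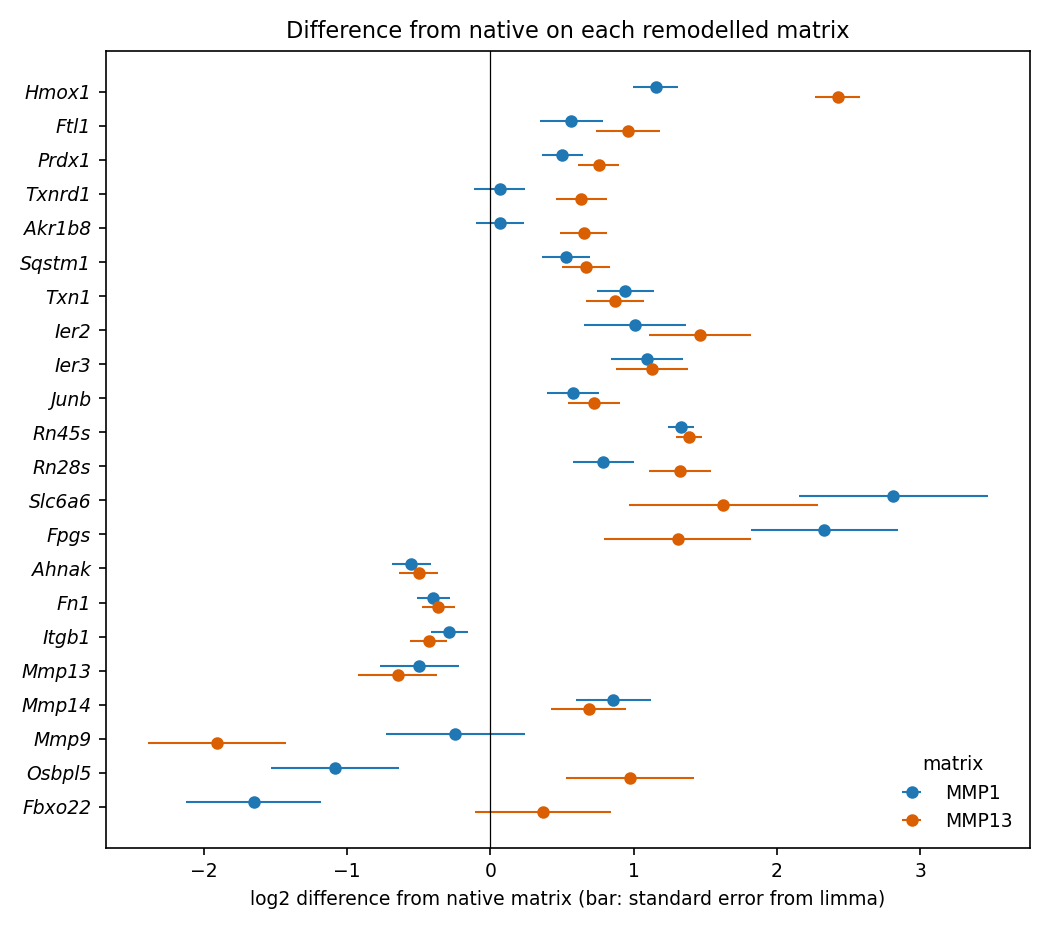
Log2 difference from native (horizontal axis, with standard errors from limma as bars) of 22 genes on MMP1-remodelled (blue) and MMP13-remodelled (orange) matrix. The pairs of points lie apart for Hmox1, Mmp9, Osbpl5, Fbxo22, Slc6a6 and Fpgs. They nearly coincide for Txn1, Ier3, Rn45s, Ahnak and Fn1. Both series share the native libraries.

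Several transcripts that passed against native on both remodelled matrices lay close together on the 2. Rn45s, an entry for the precursor of ribosomal RNA, was at 1777 and 2529 units on MMP1 and 1844 and 2631 on MMP13, a difference of 0.055 (-0.12 to 0.23), against 927 and 768 on native. Its replicates on each remodelled matrix lay further apart than that interval is wide, since the interval takes its error from the trend. Ahnak, a giant scaffold protein gene, was at 416 and 453 units on MMP1 and 408 and 495 on MMP13 (0.051, -0.21 to 0.32), under 635 and 639 on native. Ier3, an early stress-inducible gene, differed by 0.035 (-0.46 to 0.53).

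The Rn28s entry, at 159 and 146 units on MMP1 and 282 and 175 on MMP13, had a difference of 0.54 (adjusted p = 0.82), and its MMP13 libraries lay far apart. Slc6a6, the taurine transporter gene, was at 20.4 and 34.8 units on MMP1 and at 6.62 and 18.5 on MMP13 (-1.19, adjusted p = 0.99). Fpgs, which adds glutamates to folate, was at 39.4 and 38.4 units on MMP1 and at 33.8 and 10.1 on MMP13 (-1.02, adjusted p = 0.95). Both had passed against native on MMP1-remodelled matrix (2.81 and 2.33) and not on MMP13-remodelled matrix (1.63 and 1.31), but the difference between the remodelled matrices did not pass for either.

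Immediate early genes, the transcription factors and regulators that react first to a stimulus, had 24 tested members, of which 0 passed in either direction. The median difference was -0.018. Both MMP13 libraries lay below both MMP1 libraries for 6 of the 24 members and above them for 2, with 15.4% and 15.9% over all tested genes. The stress factor gene Atf3 had 32.1 and 28.8 units on MMP1 and 12.5 and 15.1 on MMP13 (-1.09, unadjusted p = 0.022, adjusted p = 0.82), with native at 10.9 and 37.7. The phosphatase gene Dusp1 had 17.5 and 12.0 units against 5.88 and 6.72 (-1.09, adjusted p = 0.99). Junb, an AP-1 subunit gene, had 253 and 247 units against 282 and 270 (0.14, -0.21 to 0.50), and Ier2 had a difference of 0.45 (-0.24 to 1.15).

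Genes of the matrix and of its turnover did not pass. Among 15 structural matrix genes the median difference was 0.033. Col1a1 was at 2191 and 1953 units on MMP1 and 2277 and 2201 on MMP13, a difference of 0.11 (-0.047 to 0.28). Fibronectin, Fn1, was at 723 and 707 units against 699 and 766 (0.033, -0.19 to 0.26). Col3a1 (1.25, unadjusted p = 0.032, adjusted p = 0.88) and the fibrillin gene Fbn1 (0.82) had the smallest p of the list, with Col3a1 at 5.84 and 9.60 units on MMP1 and at 16.9 and 21.8 on MMP13.

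Of 19 matrix proteolysis genes 0 passed, the median difference was -0.17, and 3 were lower and 0 higher at an unadjusted p under 0.05, where 2.64% and 2.58% of all tested genes were. The gelatinase gene Mmp9 was at 21.9 and 36.0 units on MMP1 and at 18.4 and 3.36 on MMP13 (-1.66, SE 0.48, unadjusted p = 5.8e-04, adjusted p = 0.35), with native at 54.7 and 20.4. Without MMP13 replicate 2 its difference was -0.59, and without MMP13 replicate 1 it was -2.74 and passed (adjusted p = 0.0040). Adam10, a membrane sheddase gene, had 14.6 and 14.4 units against 6.62 and 1.68 (-1.78, adjusted p = 0.82), and Mmp19 26.3 and 16.8 against 9.56 and 8.40 (-1.15). With a library left out the difference of Adam10 was -2.53 to -1.03. In MMP13 replicate 2, the shallowest library, Mmp9, Adam10 and Mmp19 held 2, 1 and 5 reads. The transcript of the cells' own Mmp13, at 77.4 and 63.6 units on MMP1 and 61.0 and 65.5 on MMP13 (-0.15, -0.69 to 0.39), and those of the membrane collagenase Mmp14 (-0.17, -0.68 to 0.34) and the inhibitor Timp1 (-0.18, -0.52 to 0.15) had overlapping libraries.

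Matrix receptors (16 tested, median -0.017) and focal adhesion plaque genes (20 tested, median -0.076) had no member that passed. The collagen-binding integrin subunit gene Itga11 had the smallest p of the receptors, at 1.46 and 2.40 units on MMP1 against 12.5 and 13.4 on MMP13 (2.27, unadjusted p = 0.0050, adjusted p = 0.80), with native at 8.51 and 10.6. The MMP1 values amount to 1 and 2 reads. Integrin beta 1, Itgb1, was at 570 and 511 units against 479 and 497 (-0.14, -0.40 to 0.11), and the syndecan gene Sdc4 had a difference of -0.15. In the adhesion plaque, Parva had a difference of 0.52 and the adaptor gene Bcar1 one of -0.53, each with an adjusted p of 1.

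Of 21 actin and SRF target genes 0 passed, with the actin-binding caldesmon gene Cald1 the lowest by p (-1.46, adjusted p = 0.80) and the myosin light chain gene Myl12a next (0.17). Acta2, smooth muscle actin, was at 49.7 and 57.6 units against 59.6 and 42.0 (-0.095, -0.78 to 0.59). The 13 tested YAP targets had the lowest list median, -0.40, with 0 passing and both MMP13 libraries below both MMP1 libraries for 4 of 13 and above them for 0 (15.4% and 15.9% of all tested genes). Ajuba had a difference of -1.57 (-0.72 without MMP13 replicate 1) and Gadd45b one of -0.94 (-0.26 without MMP13 replicate 2), while the YAP targets Ctgf and Cyr61 had differences of 0.018 (-0.86 to 0.90) and 0.060 (-0.61 to 0.73). Among TGF-beta targets (13 tested), Id3 had a difference of -0.70 and Id2 one of 0.69.

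**Figure D5:**
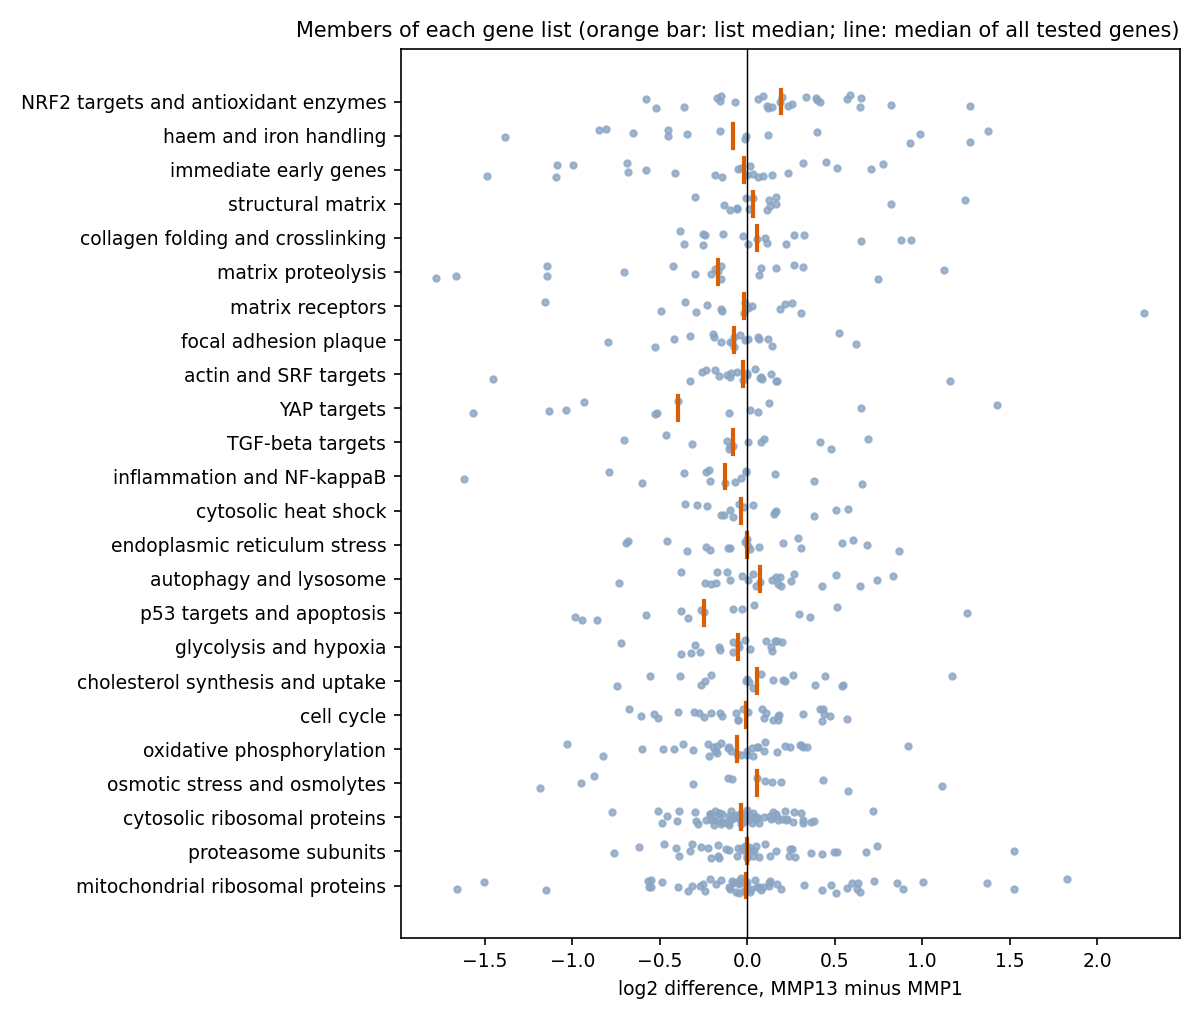
Log2 difference, MMP13 minus MMP1 (horizontal axis), of each tested member of 24 gene lists (rows, vertical scatter without meaning), with an orange bar at the list median and a line at the median of all tested genes. List medians lie between -0.40 (YAP targets) and 0.19 (NRF2 targets and antioxidant enzymes), and 22 lists had no member that passed.

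The remaining lists, of chaperones, metabolism, growth and protein turnover, also had 0 members that passed, and their medians lay between -0.25 and 0.075. By smallest p these were, for heat shock, Hsph1 (-0.36) and Cryab (0.58), and for endoplasmic reticulum stress the factor gene Ddit3 (-0.68), at 97.8 and 104 units on MMP1 and 70.6 and 55.4 on MMP13, and Calr (0.21). They were P4hb (-0.24) and Loxl3 (0.88) for collagen folding and crosslinking, Ctsl (-0.21) and Hexa (0.65) for lysosomes, and Zmat3 (1.26) and Gadd45a (-0.94) for p53 targets. They were Vegfa (-0.72) and Gpi (-0.38) for glycolysis and hypoxia, Dhcr7 (1.17) and Idi1 (0.54) for cholesterol synthesis, and Rrm2 (-0.61) and Mcm5 (-0.68) for the cell cycle. For inflammation they were Il1rl1 (-0.79) and Cxcl10 (-0.60), for oxidative phosphorylation Uqcr10 (0.92) and Sdhd (-1.03), and for osmolytes Nfat5 (-0.95) and Sgk1 (0.57).  Of 77 cytosolic ribosomal protein genes, which had a median of -0.036, Rpl8 (-0.51) and Rpl21 (-0.49) came first, of 43 proteasome genes Psmg2 (1.52) and Psmd11 (0.74), and of 60 mitochondrial ribosomal protein genes Mrpl32 (1.53) and Mrps33 (-1.66). The adjusted p of all genes named for these lists was between 0.80 and 1. Single libraries decided several of these values: Hexa had 0.00015 without MMP1 replicate 1, Zmat3 0.057 without MMP1 replicate 2 and Gadd45a 1.02 without MMP13 replicate 2. Leaving out 1 library moved the difference by over 1.5 times for 57 of the 84 genes named by rule.

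Beyond the genes that passed, the higher genes of smallest p at or above the median level of 13.3 units were Akr1b8, Txnrd1 and 5 genes of low level. Anapc13, a subunit gene of the anaphase-promoting complex, was at 8.76 and 4.8 units on MMP1 and at 28.7 and 28.5 on MMP13 (1.98, adjusted p = 0.34). Ss18, of a chromatin-remodelling complex, was at 5.84 and 9.60 units against 23.5 and 36.9 (1.84, adjusted p = 0.37). The others were Ddx19a (1.77), the mitotic kinesin gene Kif23 (1.65) and Man2c1 (1.57). For all 5 of these low genes both MMP1 libraries lay below both native libraries. Picking genes by a small p with MMP1 below MMP13 favours low MMP1 values, and the share over all tested genes was not counted. None of the 5 passed for MMP1 against native (limma adjusted p of 0.13 to 0.69). Ddx19a passed without MMP1 replicate 2 (2.81) and had 0.73 without MMP1 replicate 1 (adjusted p = 0.90). Kif23 passed without MMP13 replicate 1 (2.22) and had 1.07 without MMP13 replicate 2 (adjusted p = 1).

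The lower genes of smallest p were Gins4, Ubl3, Bloc1s4, Zdhhc6, Smurf2, Mmp9, Ppp1cb, Rgs3, Slc35e4 and Eif4ebp1, with differences from -2.31 to -0.83 and adjusted p of 0.094 to 0.59. Gins4, of the DNA replication complex GINS, was at 23.4 and 34.8 units on MMP1 and at 8.82 and 3.36 on MMP13 (-2.17, adjusted p = 0.094), with native at 25.5 and 21.1. Ubl3, a membrane-anchored ubiquitin-like protein gene, was at 38.0 and 30.01 units against 13.2 and 6.72 (-1.73, adjusted p = 0.17). The phosphatase subunit gene Ppp1cb was at 105 and 99.6 units against 52.9 and 57.1, and its difference of -0.88 (adjusted p = 0.40) was -0.94 to -0.83 with a library left out.

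Several of the lower differences named above leaned on MMP13 replicate 2, the shallowest library. Bloc1s4 had 17.6 units in MMP13 replicate 1 and 0 in replicate 2, where 3 reads make 5.04 units, and without replicate 2 its difference was -0.20 in place of -2.31. Smurf2 (-0.14), Rgs3 (-0.080) and Slc35e4 (-0.31) were similar without that library. Without MMP13 replicate 1 in its place, 23 genes passed as lower, among them these 4, and without MMP13 replicate 2 there were 0. Of the 192 genes that were lower at an unadjusted p under 0.05, 62 had at most 1 read in MMP13 replicate 2 and 12 in MMP13 replicate 1. These genes were picked for low MMP13 values, and the libraries held 161817 and 362122 reads. The matching shares over all tested genes were not counted.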

How the data were processed

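The values came from a single table (17143 genes, 6 library columns); 3 further columns without a name or values were left aside. The rat build rn5 and the tools bcl2fastq, TopHat and DESeq are listed, with no versions, per the submitters' processing notes. How genes were counted, on which annotation, with or without strand, and whether the UMIs (8 nucleotides, per the labels) were collapsed is unstated. The deposited signal was read from its values as gene counts divided by 1 size factor per library, a step no label describes: dividing by the smallest value of each library gave whole numbers (within 0.01) for 100% of entries, and these were taken as reads. Recovered reads may not be independent molecules, so floors of 3 reads cover counting error only.

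Genes reaching 5 units in 2 or more libraries were tested (7284 genes). Values were transformed to log2(value + 1) and fitted in R 4.3.3 with limma 3.58.1, using 1 coefficient per group over 6 libraries, no replicate block, 3 residual degrees of freedom and an eBayes trend of spread on level, with Benjamini-Hochberg adjustment over all tested genes. The prior degrees of freedom were infinite, so each gene's error came from the trend. On the recovered reads edgeR 4.0.16 tested 4574 genes and DESeq2 1.42.0 adjusted over 14735. The code was tested on simulated data. Other alternatives were pseudocounts, filters, quantile and TMM scaling, the 4 remodelled libraries alone, no trend, a replicate block and leaving out each library.

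Genes were named by rule: all that passed, up to 10 per direction by smallest p at or above the median level, the 2 of smallest p in each gene list, and a set of 24 genes. Members of the comparison, lists and that set were chosen with earlier results of these data known. Hnrnpab, Prkcsh, Olfml3, Spcs1, Srxn1, Taldo1, Nqo1, Cat, Mt2A, Nfe2l2, Fth1, Alas1, Bach1, Mmp19, Vim, Lgals1, Epcam and Nrg4 were named after their values were seen. So were Dcn and Lum. Symbols starting with LOC or RGD (710) were not named, and 16729 symbols were found in RefSeq gene names for GRCr8, which served only for names and overlapping spans.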

Additional observations from a re-analysis of the deposited data

How the results depend on the processing

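The count of 3 genes higher on MMP13-remodelled than on MMP1-remodelled matrix became 1 with only the 4 remodelled libraries, 1 with DESeq2 and 0 with no intensity trend, and lay between 1 and 4 when each library was dropped in turn. The cause was not tested. With no trend Hmox1, Osbpl5 and Fbxo22 each had an adjusted p of 0.82. The count of 0 lower genes held in every alternative with all libraries, and lay between 0 and 23 when each library was dropped, the 23 being without MMP13 replicate 1. With the replicate block 2 genes were higher, Hmox1 (adjusted p = 2.02e-12) and Osbpl5 (0.024), 0 were lower, and Fbxo22 had an adjusted p of 0.073. The numbers were not taken as pairs, since deviations of same-numbered libraries correlated across genes with r of only 0.0059, -0.072 and -0.045. Counting genes of identical reads once, chosen after seeing the data, left 3 and 0. The median difference over all tested genes was 0.031 with TMM and 0 with quantile scaling. Signs turned for Gadd45a with edgeR (0.33) and DESeq2 (0.17), for Fn1 with quantile scaling (-0.067) and for Ctgf with edgeR (-0.048) and DESeq2 (-0.047). With a library left out, signs turned for Gadd45a (-2.91 to 1.02), Mrps33 (-3.83 to 0.51), Txn1 (-0.23 to 0.089), Ier3 (-0.17 to 0.24), Ahnak (-0.088 to 0.19), Mmp14 (-0.44 to 0.10), Timp1 (-0.37 to 0.0084), Fn1 (-0.033 to 0.099), Acta2 (-0.34 to 0.15), Ctgf (-0.43 to 0.46), Cyr61 (-0.34 to 0.46), Rn45s (-0.20 to 0.31) and, against native on MMP13-remodelled matrix, Fbxo22 (-0.11 to 0.84). A group left with 1 library was assumed to vary like the others. Depth limits genes of low level, with a median standard error of 0.93 under 10 units and 0.54 at 10 to 30 units.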

Other observations

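Among genes at an unadjusted p under 0.05, low reads lay on the matrix with the lower values, which picking genes by direction brings about. Of the 188 genes higher on MMP13-remodelled matrix, 34 had at most 1 read in MMP1 replicate 1 and 35 in MMP1 replicate 2. Of the 192 lower genes, 62 had at most 1 read in MMP13 replicate 2 and 12 in MMP13 replicate 1, the deepest library. In MMP13 replicate 2, 2 genes had no read while holding at least 10 units in each of the other 5 libraries, and no other library had such a gene. These counts follow in part from the choice of genes by direction, from their low level and from library depth. The matching shares over all tested genes were not counted, and nothing here was tested.

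Few genes held the same order over the 3 matrices without overlap of libraries. Native below MMP1 below MMP13 was seen for 107 genes (1.47%) and the reverse for 100 (1.37%). Outside the antioxidant and iron lists, the listed genes with the first order were Junb and Zfp36 of the immediate early genes, the matrix protein gene Sparc, the chaperone gene Hsp90ab1, Ddit4, Mcm2, and Akr1b1 and Hspa4l of the osmotic list. None of them passed between the remodelled matrices, and they were named after their values were seen.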
